A study of Mus musculus with 1470 samples.

Results

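The genes described are 8 complement components and receptors (C1qa, C1qb, C1qc, C3, Cfp, Vsig4, C3ar1 and C5ar1), chosen by symbol, and all 8 are among the 14915 gene rows of the table. They were measured in single non-parenchymal liver cells (NPCs, the liver fraction depleted of hepatocytes) of male wild-type C57BL/6J mice, 3 on a normal diet (ND) and 3 on a high-fat diet (HFD). Livers were digested by collagenase perfusion, hepatocytes were depleted by centrifugation, and live cells were sorted 1 per well and read with the Smart-seq2 protocol, which covers whole transcripts and has no unique molecular identifiers. The table has 718 cells of mice ND1, ND2 and ND3 and 752 cells of HFD1, HFD2 and HFD3 and the mouse was the replicate. The methods of the study give the age and the time on the diet (young mice, fed for several weeks), which the labels do not. Values are RPKM (reads mapped to a gene, scaled by its length and by the mapped reads of the cell), so they are already divided by gene length, and a level below is the class mean of log2(RPKM + 1) in each mouse, then averaged over mice, ± SD.

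Complement is a set of plasma and membrane proteins that tag particles for removal and call in leukocytes. C1q, made of A, B and C chains, recognizes bound antibody and other surfaces and starts the classical pathway; C3 is the component on which all activation routes converge; properdin (Cfp) stabilizes the alternative pathway convertase that cleaves C3. Vsig4 (CRIg) is a receptor for C3 fragments by which Kupffer cells (KCs, the resident macrophages of the liver sinusoids) capture particles from blood, and C3ar1 and C5ar1 are the receptors for the small peptides C3a and C5a. Hepatocytes are the known main source of plasma C3, whereas C1q and properdin are known products of myeloid cells.

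Cells were clustered without any complement gene and classes were named from marker lists, which gave 230 KC-like cells (110 from ND and 120 from HFD mice), 46 MoMac/cDC-like cells (monocyte-derived macrophages and conventional dendritic cells), 15 neutrophil-like, 20 pDC-like (plasmacytoid dendritic), 448 endothelial-like, 33 hepatocyte-like and 48 NK-like cells, besides B-cell-like (21 to 54 per mouse) and T-cell-like cells (16 to 59 per mouse). All 11 KC markers were at 1 RPKM or more in at least 25% of the KC-like cells, and their summed level (the sum over markers of the mean level) was 93.7 in these cells against 26.9 in the other cells. A mixed cluster led by red cell genes stayed unnamed, and it held 3.76% of the ND and 9.97% of the HFD cells, with 52 of its cells from HFD2. Median depth per mouse, estimated from the low RPKM values, was 86180 to 199026 exon reads per cell. HFD2 stood apart, with the fewest genes at 1 RPKM or more (a median of 1596 per cell, against 2364 to 3163 in the other mice) and the lowest depth. A class mean was used where a mouse had at least 3 cells of the class, which left 3 mice for neutrophil-like (ND2, HFD1 and HFD3), 4 for pDC-like and 4 for hepatocyte-like cells (ND1, HFD1, HFD2 and HFD3).

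The C1q genes lie side by side within 18719 bases of chromosome 4 (136880126 to 136898844, GRCm38.p6), in the order C1qb, C1qc, C1qa along the chromosome. Cfp (20925454 to 20931555) and Vsig4 (96247201 to 96293438) are on chromosome X, C3 on chromosome 17 (57203967 to 57228136), C3ar1 on chromosome 6 (122847140 to 122856157) and C5ar1 on chromosome 7 (16246743 to 16259540). The 250 bases before the transcript start that RefSeq's promoter entry uses for C1qb, C1qc and Vsig4, genes whose levels moved together across the classes, are shown 5′ to 3′ on the minus strand, from RefSeq. Capitals mark GAGGAA, an ETS core with a flank of the kind bound by the macrophage factor PU.1, and TGCTGA, a Maf half-site, on either strand, so that they also appear as TTCCTC or TCAGCA.
C1qb, chr4:136886201-136886450: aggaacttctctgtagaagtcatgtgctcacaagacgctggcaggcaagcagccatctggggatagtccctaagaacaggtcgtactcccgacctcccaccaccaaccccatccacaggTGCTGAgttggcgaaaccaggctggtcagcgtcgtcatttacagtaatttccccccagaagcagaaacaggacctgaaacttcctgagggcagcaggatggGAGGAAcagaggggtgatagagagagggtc
C1qc, chr4:136892915-136893164: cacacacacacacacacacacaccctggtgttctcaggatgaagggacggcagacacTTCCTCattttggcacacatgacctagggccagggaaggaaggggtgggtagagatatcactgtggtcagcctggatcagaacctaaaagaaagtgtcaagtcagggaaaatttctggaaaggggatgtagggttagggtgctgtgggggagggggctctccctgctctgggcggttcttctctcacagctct
Vsig4, chrX:96293439-96293688: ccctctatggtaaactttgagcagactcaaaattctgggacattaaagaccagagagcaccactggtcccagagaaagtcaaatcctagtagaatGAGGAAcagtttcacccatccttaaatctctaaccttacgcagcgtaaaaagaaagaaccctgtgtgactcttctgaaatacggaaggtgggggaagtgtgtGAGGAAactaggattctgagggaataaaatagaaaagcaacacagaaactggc
GAGGAA lay at -30 in C1qb, at -193 in C1qc and at -155 and -53 in Vsig4, counted from that start. For C1qc the start lies inside the span of the gene itself (136889801 to 136892936). Over the window from 250 bases before to 50 after the start, GAGGAA was in 4 of the 7 members with an entry (also in Cfp, at 6 and 22) and in 28.3% of all 27025 promoters. TGCTGA was in 5 of 7 (C1qb, C3, Vsig4, C3ar1 and C5ar1) against 19.1% of all promoters, TTGCNNAA, a C/EBP core, in 1 of 7 (C3) against 10.8%, and TATAAA in 2 of 7 (C3 and C3ar1) against 14.2%. C1qa had no entry. A match of these letters was not tested as a binding site.

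C1qa, C1qb and C1qc were the most abundant members, and KC-like cells carried them at very high levels in every mouse. C1qa averaged 12.73 ± 0.12 in KC-like cells (n = 6 mice), from 12.59 in ND2 over a median of 12.72 to 12.88 in HFD1. C1qb averaged 12.64 ± 0.46, with a median of 12.71 and a range of 11.78 (HFD2) to 13.10 (ND1), and C1qc averaged 12.51 ± 0.28, with a median of 12.53 and a range of 12.06 (HFD2) to 12.88 (ND1). The 6 mice thus lay close together, and for C1qb and C1qc HFD2 was the lowest. On the linear scale the class means were 8981 ± 579 RPKM for C1qa, 9344 ± 744 RPKM for C1qb and 7837 ± 613 RPKM for C1qc. HFD2 was the lowest mouse on that scale for C1qb (8492 RPKM) but not for C1qc (8171 RPKM, with ND3 lowest at 7131 RPKM).
The 3 chains were also found together in single cells. All 3 were at 1 RPKM or more in 99.1% of the 230 KC-like cells (95% Wilson interval 96.9 to 99.8%), and both cells without all 3 were from HFD2. The intervals given here cover counting error only.
No other class came near these levels. C1qa averaged 5.26 ± 2.18 in neutrophil-like cells (n = 3 mice), 4.69 ± 2.17 in endothelial-like, 4.41 ± 1.10 in hepatocyte-like (n = 4), 4.31 ± 1.48 in B-cell-like, 4.27 ± 1.86 in MoMac/cDC-like, 4.10 ± 1.06 in NK-like, 3.85 ± 1.33 in T-cell-like and 3.28 ± 1.13 in pDC-like cells (n = 4). Only KC-like against neutrophil-like, neutrophil-like against endothelial-like (0.31 ± 0.30 within 3 mice) and T-cell-like against pDC-like cells were neighbours in this order whose difference within mice exceeded its SD. The spread between mice within each of these classes was thus larger than most steps between classes.

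**Figure D1:**
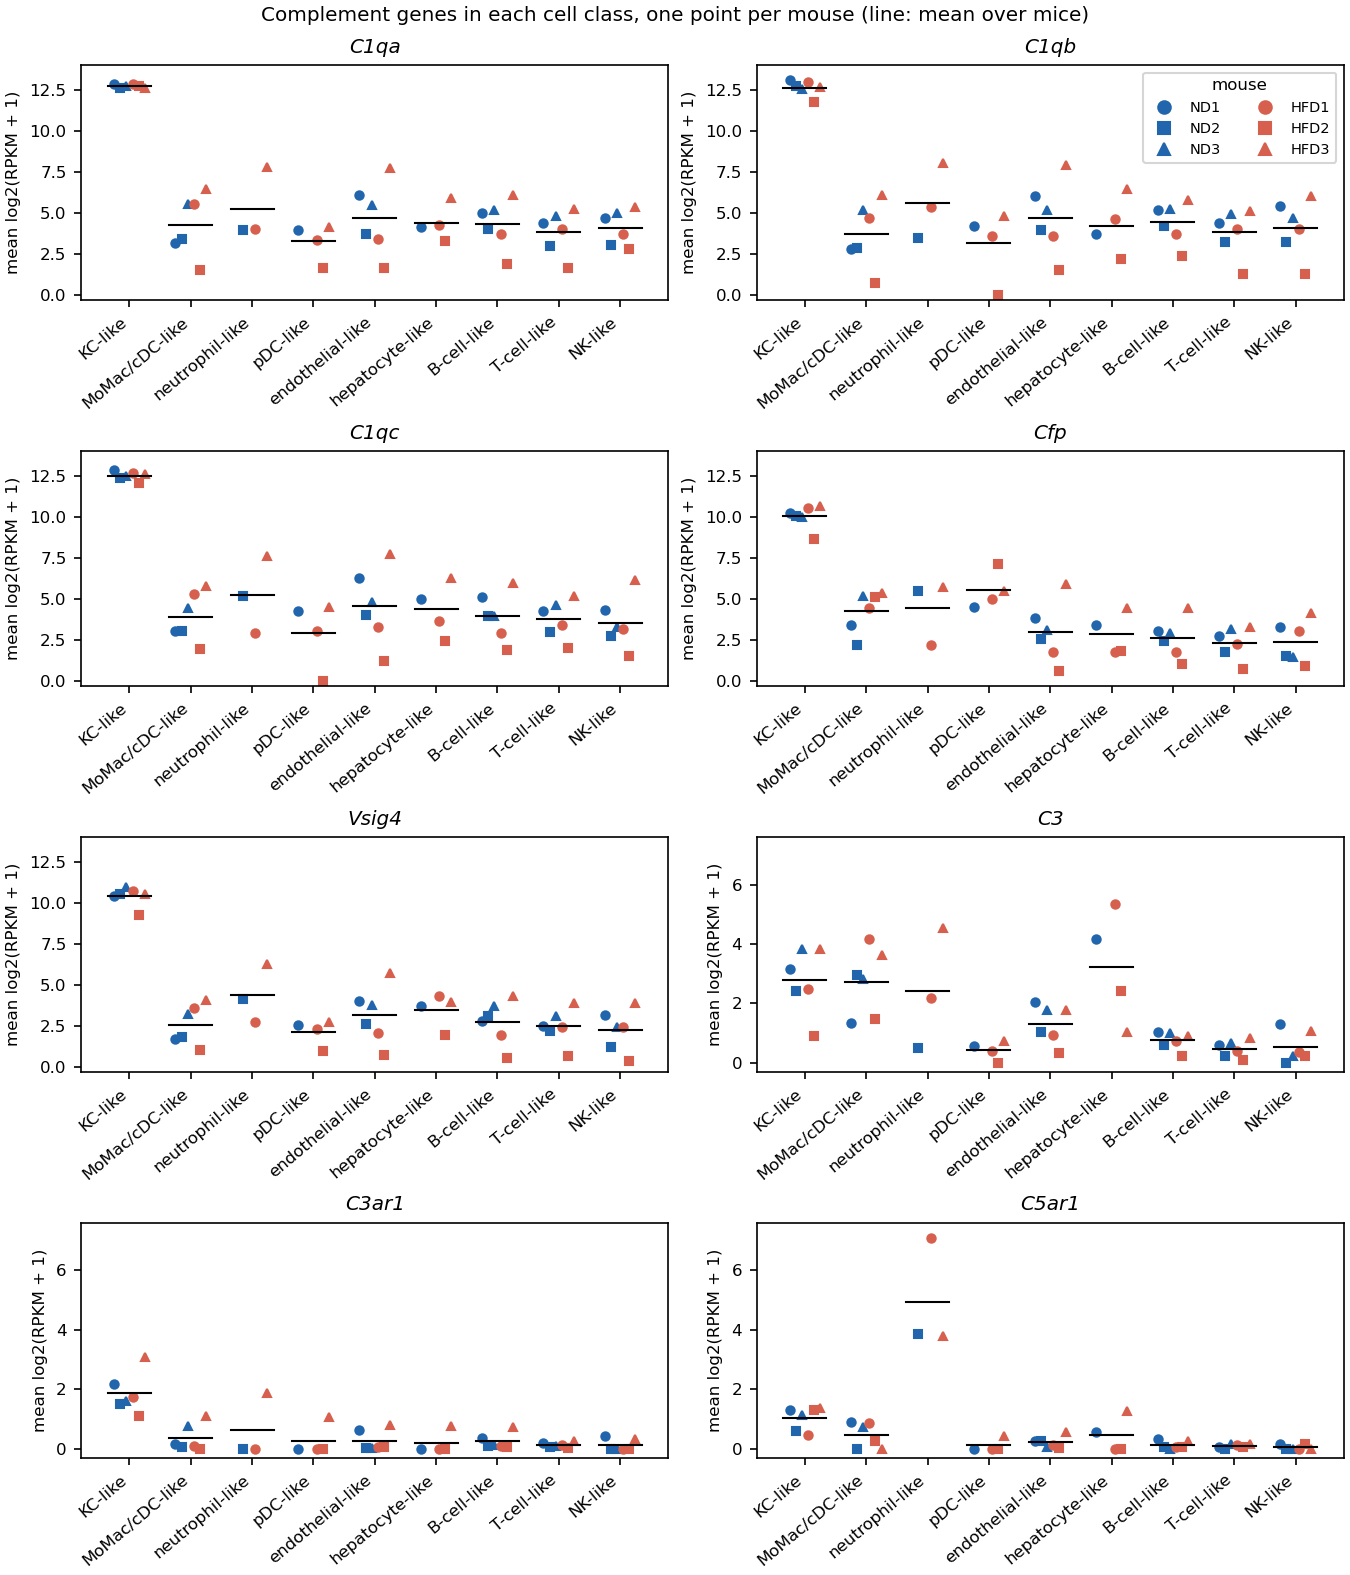
Level of each complement gene (vertical axis, mean log2(RPKM + 1) over the cells of a class) in 9 marker-defined classes (horizontal axis), 1 point per mouse with at least 3 cells and a line at the mean over mice. C1qa, C1qb and C1qc sit at 11.78 to 13.10 in KC-like cells of every mouse, and C5ar1 is highest in neutrophil-like cells, shown for the 3 mice with at least 3 of them.

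Vsig4 and Cfp were both highest in KC-like cells and parted in the order of the other classes. Vsig4 averaged 10.41 ± 0.58 in KC-like cells, with a median of 10.53 and a range of 9.27 (HFD2) to 10.95 (ND3), and 2657 ± 398 RPKM on the linear scale. The next class, neutrophil-like cells, averaged 4.37 ± 1.77 (n = 3), and all others lay between 2.12 (pDC-like) and 3.47 (hepatocyte-like), with no neighbouring pair below KC-like cells differing beyond its spread. Vsig4 reached 1 RPKM in 224 of 230 KC-like cells (97.4%, interval 94.4 to 98.8%).
Cfp averaged 10.02 ± 0.73 in KC-like cells, with a median of 10.16 and a range of 8.64 (HFD2) to 10.68 (HFD3), and 2406 ± 212.8 RPKM. Its second class was pDC-like cells, at 4.50, 4.96, 7.15 and 5.49 in ND1, HFD1, HFD2 and HFD3 (mean 5.52 ± 1.16). Neutrophil-like cells (4.44 ± 1.97, n = 3) and MoMac/cDC-like cells (4.27 ± 1.25, range 2.16 to 5.34) came next, and endothelial-like cells had 2.96 ± 1.81. KC-like and pDC-like cells differed beyond their spread (4.50 ± 2.02 within 4 mice), and the steps below did not. In cells with a value, the estimated number of Cfp reads had a median of 384 in KC-like and 75.1 in pDC-like cells against 2.19 in endothelial-like and 2.17 in T-cell-like cells, so Cfp in pDC-like cells did not rest on single reads.
Within the MoMac/cDC-like cells, 14 MoMac1-like, 17 MoMac2-like and 15 cDC-like cells were separated by their own markers. Mean Cfp over cells was 2.69, 4.71 and 5.14 in these groups, with single cells up to 4.92, 9.17 and 10.01. These are small numbers of cells from 6 mice each and were not tested.

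C3 did not follow the KC-like pattern. It averaged 3.23 ± 1.90 in hepatocyte-like cells, with 4.15, 5.33, 2.42 and 1.02 in ND1, HFD1, HFD2 and HFD3. KC-like cells averaged 2.77 ± 1.11, with a median of 2.81 and a range of 0.90 (HFD2) to 3.84 (ND3), and MoMac/cDC-like cells 2.73 ± 1.13, with a median of 2.90 and a range of 1.34 (ND1) to 4.15 (HFD1). Neutrophil-like cells averaged 2.40 ± 2.03 (n = 3), and none of these 4 classes differed from its neighbour beyond the spread between mice. Below them, endothelial-like cells had 1.32 ± 0.65, above B-cell-like cells (0.75 ± 0.30) in 6 of 6 mice by 0.57 ± 0.37, and NK-like, T-cell-like and pDC-like cells had 0.53, 0.47 and 0.43.
C3 was at 1 RPKM or more in 63.9% of KC-like cells (interval 57.5 to 69.8%), in 21 of 33 hepatocyte-like (63.6%, 46.6 to 77.8%) and in 25 of 46 MoMac/cDC-like cells (54.35%, 40.2 to 67.85%). In T-cell-like cells the share was 19.1% (14.9 to 24.1%), at a higher median depth (150120 reads against 104735 in KC-like cells). Where C3 had a value, its median was 22.8 estimated reads in MoMac/cDC-like, 10.7 in hepatocyte-like and 5.06 in KC-like cells, against 1.02 in T-cell-like cells. Among the MoMac/cDC-like cells, mean C3 over cells was 4.04 in MoMac2-like, 2.85 in MoMac1-like and 1.54 in cDC-like cells.
Hepatocyte markers were also found in KC-like cells. All 9 hepatocyte markers averaged at least 1 in KC-like cells, none was at 0, and their summed level was 29.3 (HFD2) to 70 (HFD3), against 10 to 26.2 in T-cell-like and up to 105 in hepatocyte-like cells. The classes did not follow 1 order for C3 and these markers, since MoMac/cDC-like cells had a summed level of 10.2 to 30.6 at a mean C3 of 2.73 (2.77 in KC-like cells) and endothelial-like cells 13.7 to 51.1 at a mean C3 of 1.32. Alb alone was at 9.46 ± 1.01 in KC-like cells. In KC-like cells HFD2 was the lowest mouse for both C3 and these markers. Their part in the C3 level was not tested.

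The receptors for C3a and C5a were low and differed in where they were highest. C3ar1 averaged 1.87 ± 0.68 in KC-like cells, with a median of 1.67 and a range of 1.11 (HFD2) to 3.07 (HFD3), above neutrophil-like cells (0.63 ± 1.08) in 3 of 3 mice by 1.48 ± 0.27. All other classes averaged 0.36 or less. C3ar1 was at 1 RPKM or more in 84 of 230 KC-like cells (36.5%, interval 30.6 to 42.9%) and in 5.65% of T-cell-like cells (3.51 to 8.99%). The share in MoMac/cDC-like cells, 4 of 46 (8.70%, 3.43 to 20.3%), had an interval that overlaps that of T-cell-like cells. In cells with a C3ar1 value the median was 23.1 estimated reads in KC-like cells and about 1 read in MoMac/cDC-like, endothelial-like, B-cell-like and T-cell-like cells (1.01 to 1.02).
C5ar1 was the only member with its highest mean in neutrophil-like cells, at 3.87 in ND2, 7.10 in HFD1 and 3.80 in HFD3 (mean 4.92 ± 1.89). It was at 1 RPKM or more in 11 of 15 of these cells (73.3%, interval 48.05 to 89.1%). KC-like cells averaged 1.02 ± 0.40, with a median of 1.21 and a range of 0.45 (HFD1) to 1.37 (HFD3), and the difference within the 3 shared mice was 4.12 ± 2.23, higher in neutrophil-like cells in 3 of 3. MoMac/cDC-like cells averaged 0.46 ± 0.42, which did not differ from KC-like cells beyond the spread (0.56 ± 0.61). C5ar1 was found in 45 of 230 KC-like cells (19.6%, 14.96 to 25.2%) against 3.89% of T-cell-like cells (2.18 to 6.825%). Neutrophil markers were near the floor in KC-like cells, where none of the 9 averaged 1 and their summed level was 1.19 to 5.15, against 63 to 82.1 in neutrophil-like cells. Among the MoMac/cDC-like cells, C5ar1 reached 1 RPKM in 4 of 17 MoMac2-like, 1 of 14 MoMac1-like and 0 of 15 cDC-like cells.
In single KC-like cells, 26 had both receptors at 1 RPKM or more, 58 had C3ar1 only, 19 had C5ar1 only and the rest had neither. A cell without a value is not a cell without the transcript at this depth, because 1 read of C3ar1 corresponded to 1.88 RPKM in a cell of median depth (123648 reads). The 2 KC-like clusters differed in genes detected and in C3ar1. Cluster 5 (94 cells, a median of 3022 genes, none from HFD2) had C3ar1 in 52.1% of its cells and cluster 8 (a median of 2013 genes, with all 27 of HFD2) in 25.7%. C5ar1 averaged 1.12 ± 0.56 in cluster 5 and 0.84 ± 0.38 in cluster 8, within the spread. Mean Cfp was 10.90 ± 0.28 (n = 5) and 9.57 ± 0.65 (n = 6), and Vsig4 11.14 ± 0.51 and 10.15 ± 0.48, while C1qa was at 12.88 ± 0.16 and 12.59 ± 0.26. The part of the number of genes detected in these differences was not tested.

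Outside KC-like cells, the C1q genes and Vsig4 were found in most cells but at few reads, and in several classes near the proportion to a KC marker that they had in KC-like cells. C1qa was at 1 RPKM or more in 78.8 to 90% of the cells of every other class. Where it had a value, its median was 3.87 estimated reads in T-cell-like and 4.79 in endothelial-like cells, against 950.5 in KC-like cells. T and B cells are not known for C1q, and the 86.96% of MoMac/cDC-like cells (interval 74.3 to 93.9%) overlapped the 78.8% of T-cell-like cells (73.7 to 83.2%), so the shares do not separate these classes. Single cells stood out among the MoMac/cDC-like cells, where C1qa reached 10.70 in a MoMac2-like and 10.97 in a cDC-like cell, against a highest value of 7.14 in MoMac1-like cells.
The ratio of mean C1qa to mean Clec4f RPKM (Clec4f is a lectin that defines KCs) had a median over mice of 2.10 in KC-like, 2.12 in endothelial-like, 2.09 in T-cell-like, 1.79 in B-cell-like and 1.90 in NK-like cells. It was 1.02 in neutrophil-like cells (n = 3) and ranged from 0.434 to 13.7 in MoMac/cDC-like cells. For Vsig4 the same ratio was 0.610 in KC-like, 0.751 in endothelial-like, 0.587 in T-cell-like and 0.584 in B-cell-like cells. Cfp kept its KC-like ratio (0.568) in T-cell-like (0.598) and endothelial-like cells (0.624) but not in MoMac/cDC-like cells (4.76, from 0.891 to 85.9) or pDC-like cells (23.3, from 10.4 to 252). C3 was at 0.0154 of Clec4f in KC-like cells, 2.42 in MoMac/cDC-like cells (1.02 to 4.37) and 5.52 in hepatocyte-like cells (0.06345 to 19.2), and C5ar1 at 0.00681 in KC-like and 6.22 in neutrophil-like cells (0.446 to 19.1). 
The members also differed in the order of the mice. In the 5 other classes with all 6 mice, HFD2 was lowest and HFD3 highest in 5 of 5 for C1qa, C1qb, C1qc and Vsig4, and also for the KC markers Clec4f and Cd5l. For Cfp the counts were 4 and 5 of 5, for C3ar1 3 and 4, for C3 3 and 1 and for C5ar1 1 and 1. The summed level of the 11 KC markers was also lowest in HFD2 and highest in HFD3 in these classes, at 18.4 and 57 in endothelial-like and 9.41 and 31.1 in T-cell-like cells, and in endothelial-like cells 10 of the 11 averaged at least 1 and none was at 0. The part of RNA from KCs in these values was not tested.

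**Figure D2:**
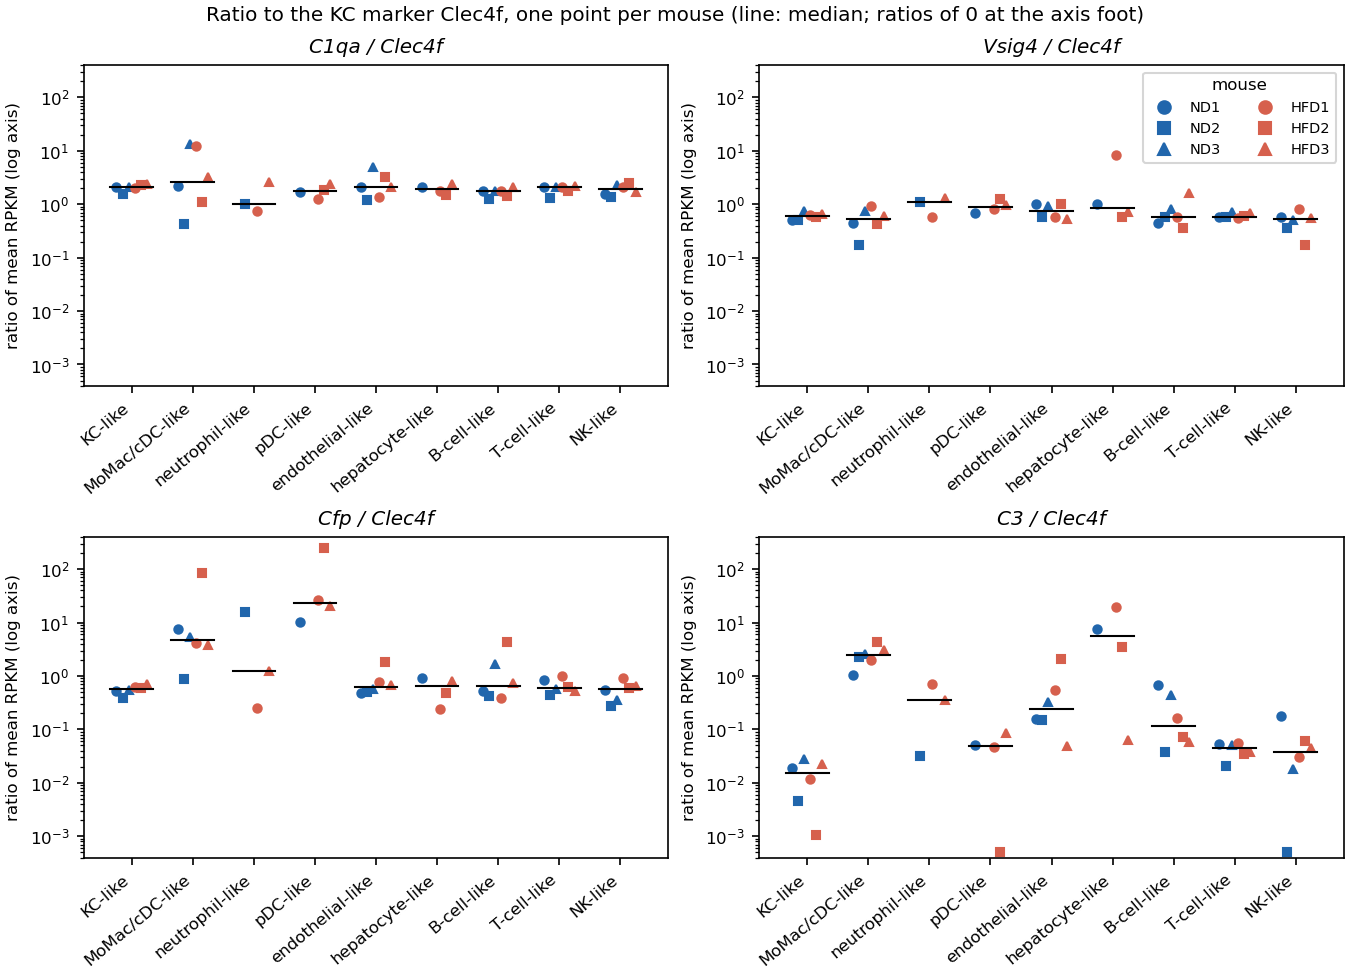
Ratio of the mean RPKM of C1qa, Vsig4, Cfp and C3 to that of the KC marker Clec4f (vertical axis, log scale) in each class, 1 point per mouse and a line at the median, with ratios of 0 drawn at the foot of the axis. C1qa and Vsig4 stay near their KC-like ratios (2.10 and 0.610) in most classes, whereas Cfp rises to 23.3 in pDC-like cells and C3 to 5.52 in hepatocyte-like cells.

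Differences between classes were tested within mice with limma on all genes with a mean level of at least 1, with Benjamini-Hochberg adjustment over all genes tested. The classes were built from other genes of the same cells, so the tests describe these classes and not an independent sort. Against MoMac/cDC-like cells, 6 of the 7 members tested were higher in KC-like cells, where 5.08% of the 4489 genes tested were called higher, and the median difference was 7.83 over the members and -0.95 over all genes. The 3 C1q genes differed by 8.46 to 8.89, Vsig4 by 7.83 ± 0.44 (SE, limma adjusted p = 1.93e-14), Cfp by 5.75 ± 0.49 and C3ar1 by 1.51 ± 0.42 (limma adjusted p = 0.00525). C3 did not pass, with 0.03 ± 0.47 (SE, limma adjusted p = 0.956) and 3 of 6 mice higher.
Against endothelial-like cells, 7 of 7 members tested were higher (16.9% of 3921 genes called higher, median 7.25 over the members and -0.28 over all genes). Against B-cell-like cells, 7 of 7 were higher (23.3% of 3468 genes, medians 7.67 and -0.10), and against T-cell-like cells 6 of 6 (16.2% of 3926 genes, medians 8.36 and -0.57). C3 exceeded these classes by 1.45 ± 0.24 (endothelial-like), 2.02 ± 0.29 (B-cell-like) and 2.30 ± 0.29 (T-cell-like), with limma adjusted p of 1e-04, 2.17e-05 and 7.12e-07. C3ar1 exceeded endothelial-like cells by 1.60 ± 0.22 and B-cell-like cells by 1.62 ± 0.23 (limma adjusted p = 1.48e-05 and 2.5e-05).
C3ar1 in the 3 comparisons where it was tested, and C3 against B-cell-like and T-cell-like cells, passed the filter on low values only through KC-like cells and had to differ, so the counts above are not support for them, and C5ar1 passed it in none. Every tested member was higher in KC-like cells in 6 of 6 mice, except C3 against MoMac/cDC-like cells, and the two-sided exact sign-flip test gave 0.0312 for each, the smallest p that 6 mice allow. Without the filter, C5ar1 was higher in KC-like than in endothelial-like, B-cell-like and T-cell-like cells in 6 of 6 mice (by 0.81, 0.90 and 0.94, exact p = 0.0312 for each) and than in MoMac/cDC-like cells in 5 of 6 (0.56, exact p = 0.125). Without HFD2 the counts against MoMac/cDC-like, endothelial-like, B-cell-like and T-cell-like cells were 6, 7, 7 and 7, and without HFD3 they were 5, 6, 6 and 6. C3ar1 no longer passed the filter on low values without HFD3, nor against endothelial-like cells without ND1, where the count was 6. Against T-cell-like cells, where its mean lay just under the filter with all mice, the count was 6 to 7 when each mouse was left out. Differences of low members depended on the scale, that of C3ar1 from endothelial-like cells ranging from 1.54 to 4.17 over 15 alternatives.

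**Figure D3:**
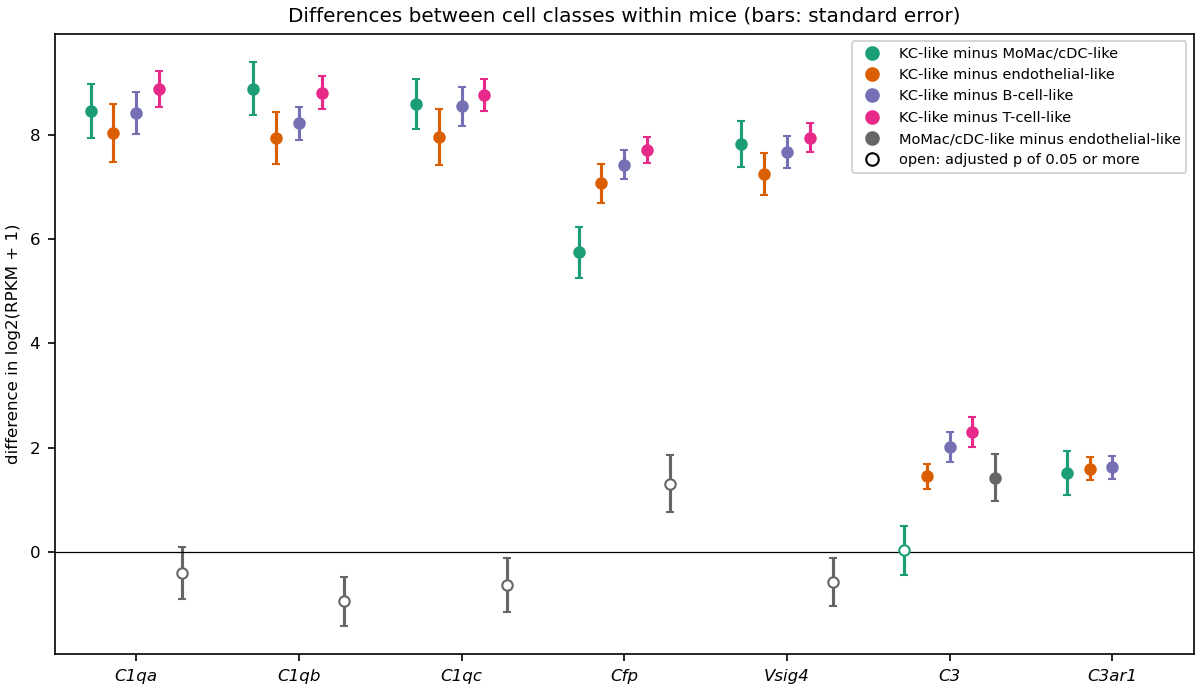
Difference in mean log2(RPKM + 1) between classes within mice (vertical axis) for each member tested (horizontal axis), with bars for the limma standard error and open points for an adjusted p of 0.05 or more. KC-like cells exceed all 4 other classes for C1qa, C1qb, C1qc, Cfp and Vsig4 by 5.75 to 8.89, and C3 is at 0.03 against MoMac/cDC-like cells.

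MoMac/cDC-like cells were set against endothelial-like cells as the myeloid class other than KCs. Of 6 members tested, 1 was higher (32.2% of 5101 genes were called higher, median -0.50 over the members and 0.62 over all genes). C3 differed by 1.42 ± 0.45 (SE, limma adjusted p = 0.0137) and was higher in 5 of 6 mice, with ND1 opposite (exact sign-flip p = 0.0625). Cfp differed by 1.31 ± 0.55 (limma adjusted p = 0.057) with 3 of 6 mice higher, and C1qa, C1qb, C1qc and Vsig4 by -0.41, -0.95, -0.64 and -0.58 (limma adjusted p = 0.107 to 0.516). Without HFD1, C3 missed the threshold (1.05 ± 0.47, limma adjusted p = 0.0843) and C1qb was called lower (-1.37, limma adjusted p = 0.0322). Without ND1, ND2 or HFD3, Cfp was called higher (1.65, 1.66 and 1.69, limma adjusted p = 0.0299, 0.0247 and 0.018), and without ND3, HFD1 or HFD2 it was at 1.16, 1.04 and 0.68 (limma adjusted p = 0.148, 0.187 and 0.296).

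Of 52 other complement genes listed, 44 are in the table, and few reached a level of 2 in any class, from 4 genes in T-cell-like and NK-like cells to 8 in KC-like and endothelial-like cells. Fcna, C6 and C4b were highest in KC-like cells. Fcna, a ficolin of the lectin pathway, averaged 11.41 ± 0.42 in KC-like cells and 3.14 ± 1.38 in MoMac/cDC-like cells (difference 8.26 ± 0.51, limma adjusted p = 9.35e-14). C6, of the membrane attack complex, averaged 7.06 ± 0.82 and 1.23 ± 0.63 (difference 5.84 ± 0.45, limma adjusted p = 1.89e-11).
C4b, of the classical and lectin pathway convertase, was at 4.76 ± 0.74 in KC-like cells and at 1.0 or less in every other class (C4b and Cr2 are named after their values were seen). The protective regulators lay elsewhere. Cd55, which speeds the decay of convertases, was at 6.09 ± 0.67 in endothelial-like and 6.01 ± 1.26 in B-cell-like cells against 1.90 ± 0.53 in KC-like cells (differences of -4.20 ± 0.33 and -4.11 ± 0.32). Cd59a, which blocks the membrane attack complex, was at 4.84 ± 1.0 in endothelial-like and 0.79 ± 0.47 in KC-like cells.
The integrin chains of the other C3 fragment receptors were lower in KC-like than in MoMac/cDC-like cells, Itgam by -2.41 ± 0.46, Itgax by -2.62 ± 0.46 and Itgb2 by -2.49 ± 0.43. Cr2, the C3d receptor of B cells, was at 2.14 ± 0.74 in B-cell-like cells and at 0.25 or less in all other classes. Itgam, Itgax, Cd59a and Cr2 averaged under 1 in KC-like cells and C4b in the classes it was tested against, so these passed the filter on low values only through the class where they were high and had to differ. Of the other complement genes tested, KC-like cells were higher for 6 and lower for 3 of 14 against MoMac/cDC-like cells, 8 and 6 of 17 against endothelial-like, 9 and 2 of 13 against B-cell-like and 8 and 2 of 12 against T-cell-like cells. Over all genes tested, 42.7%, 34.6%, 28.8% and 49% were called lower in KC-like cells in these 4 comparisons. MoMac/cDC-like cells were higher than endothelial-like cells for 3 and lower for 7 of 16, where 11.3% of all genes tested were called lower. In hepatocyte-like cells C8g (2.95 ± 1.37) and Vtn (2.65 ± 1.76) were among the 4 highest.

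Across mice and classes, the genes most like C1qa, C1qb, C1qc and Vsig4 were KC genes. Over the 36 means of 6 mice in 6 classes, Pearson's r with C1qa was 0.990 for Clec4f, 0.988 for Cd5l and 0.986 for Fcna, and Vsig4 had 0.992 with Clec4f, 0.991 with Cd5l and 0.9875 with Folr2. The points share mice, libraries and depth, and Clec4f, Cd5l and Folr2 were among the markers that named KC-like cells, so these values are a description. Cfp was closest to Wfdc17 (0.976), Lpl (0.9645) and Pltp (0.960), with Clec4f in rank 12. C3 stood furthest from the KC genes, with 0.572 for Clec4f and its highest values for Pla2g7 (0.888), Clec7a (0.886) and Lst1 (0.877). C3ar1 was closest to Nr1h3 (0.951), Fabp7 (0.943) and Il18bp (0.923), and C5ar1, without neutrophil-like cells among the points, to Sdc3 (0.818), Wfdc17 (0.808) and Lpl (0.7975).

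The comparison of HFD with ND asked whether the diet changed these genes within a class. In KC-like cells 0 of 8 members were called by limma (0% of 3249 genes, of which 2.55% had an unadjusted p under 0.05, none of them a member). C1qa differed by 0.04 ± 0.42 (SE), C1qb by -0.31 ± 0.47, C1qc by -0.14 ± 0.44, Cfp by -0.15 ± 0.57 and Vsig4 by -0.47 ± 0.50, each with a limma adjusted p of 1. C3 averaged 3.13 ± 0.72 in ND and 2.40 ± 1.47 in HFD mice (-0.73 ± 0.70), C3ar1 1.76 ± 0.36 and 1.98 ± 1.0 (0.22 ± 0.55) and C5ar1 1.01 ± 0.36 and 1.04 ± 0.51 (0.03 ± 0.47). The diets overlapped for every member, and the two-sided exact permutation test gave 0.5 to 1, where 3 mice against 3 cannot go below 0.1. The standard errors were 0.42 to 0.70 on the log2 scale, and each gene's standard error exceeded its difference except for C3. The C3 difference was 0.02 ± 0.53 without HFD2 (limma adjusted p = 1) and -1.45 to -0.38 without each of the other mice in turn. Leaving out HFD2 also moved C1qb to 0.04, C1qc to 0.05, Vsig4 to -0.02, Cfp to 0.50 ± 0.41 and C3ar1 to 0.65 ± 0.48, with C1qa still at 0.04. C3ar1 was at -0.33 ± 0.50 without HFD3. None of these was called.

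**Figure D4:**
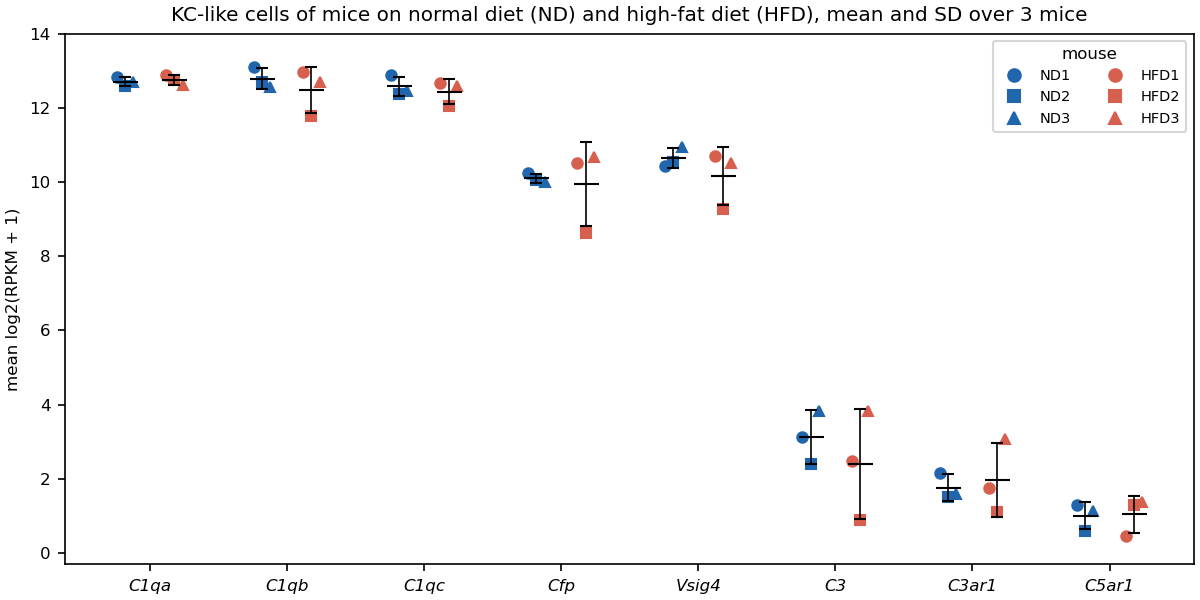
Level of each member in KC-like cells (vertical axis, mean log2(RPKM + 1)) of the 3 ND and 3 HFD mice, with the mean and SD over mice. The diets overlap for all 8 members, and HFD2 is the lowest mouse on this scale for C1qb, C1qc, Cfp, Vsig4, C3 and C3ar1. In mean RPKM it is not the lowest for C1qc, Cfp and Vsig4.

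In the other classes no member was called by diet either. The counts were 0 of 6 members in MoMac/cDC-like cells (0% of 5410 genes, 3.27% at an unadjusted p under 0.05), 0 of 6 in endothelial-like (0% of 4352, 1.45%), 0 of 5 in B-cell-like (0% of 3633, 4.24%) and 0 of 5 in T-cell-like cells (0% of 4381, 3.04%), with no member among the unadjusted. The diets overlapped for all 8 members in each class, with exact permutation p of 0.3 to 1. Cfp in MoMac/cDC-like cells had the widest gap, 3.43, 2.16 and 5.17 in ND1, ND2 and ND3 and 4.43, 5.08 and 5.34 in HFD1, HFD2 and HFD3 (1.36 ± 0.91, limma adjusted p = 0.999, exact permutation p = 0.3). It was 0.65 without ND2 and 2.15 without ND3. Leaving out HFD2 moved C1qa, C1qb and C1qc there from 0.46, 0.22 and 0.84 to 1.95, 1.77 and 2.04. In that fit 2 of 6 members had an unadjusted p under 0.05 (4.59% of all genes), and none was called. The class differences themselves did not pass a test between the diets either, for KC-like minus MoMac/cDC-like (0 of 7 members, 0% of 4489 genes, 3.88% unadjusted) or KC-like minus endothelial-like cells (0 of 7, 0% of 3921, 2.88% unadjusted).
In endothelial-like cells the diet comparison depended on HFD2 and on HFD3. C1qa there was at 6.11, 3.71 and 5.50 in ND1, ND2 and ND3 and at 3.40, 1.67 and 7.72 in HFD1, HFD2 and HFD3, so the HFD mice held both the highest and the lowest value. With all mice C1qa differed by -0.84 ± 1.13 (SE). Leaving out HFD2 turned the difference positive for C1qa (0.45 ± 1.15), C1qb (0.70), C1qc (0.48), Cfp (0.68) and Vsig4 (0.42). C3 was then at -0.26, and no member was called. Without HFD3, 5 of 6 members were called lower in HFD mice (1.2% of 4163 genes were called lower), C1qa by -2.57, C1qb by -2.48, C1qc by -2.79, Vsig4 by -2.07 and Cfp by -1.96 (SE 0.51 each, limma adjusted p = 4.43e-05 to 0.013). The prior of that fit was infinite, so 1 common spread was used for all genes. In the same fit 4 of the 9 KC markers tested were also lower, Clec4f by -2.53, Cd5l by -2.17, Csf1r by -2.0 and Folr2 by -1.78, while the other 5 were not called (from -0.35 for Lgmn to -1.42 for Slc40a1). The class was made of 3 clusters (2, 7 and 11) that the mice filled unequally. Cluster 11 held 76.1% of the endothelial-like cells of ND1, 23.7% of ND2 and 27.5% of ND3, and 11% of HFD1, 2.41% of HFD2 and 76.6% of HFD3, while cluster 7 held 95.2% of those of HFD2. C1qa was higher in cluster 11 than in every other cluster with at least 3 cells of the mouse in each of 5 mice, at 6.81 (ND1), 5.4 (ND2), 6.65 (ND3), 4.76 (HFD1) and 8.36 (HFD3), against 3.19 to 5.58 in cluster 7 and 2.92 to 5.9 in cluster 2 of these mice. The diet values in endothelial-like cells thus differ in cluster make-up as well, and its part in the difference without HFD3 was not tested. Leaving out HFD3 also moved the members in B-cell-like cells, from -0.86 to -1.97 for C1qa, with 5 of 5 at an unadjusted p under 0.05 (9.2% of all genes) and none called (limma adjusted p = 0.482 to 0.525), and in T-cell-like cells, with 2 of 5 (6.39% of all genes) and none called (0.754 to 0.84). Leaving out HFD2 instead, the members lay between -0.12 and 0.33 in B-cell-like and between 0.19 and 0.57 in T-cell-like cells, with none called. C1qa in KC-like cells was at 12.62 in HFD3 and 12.59 to 12.88 in the other mice.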

How the data were processed

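Single liver cells of 6 mice were profiled with Smart-seq2. The deposited table holds RPKM values per gene and cell, which the authors computed from uniquely mapped reads over gene models after removing low-quality cells and doublets; the submitters' processing notes name STAR, bcl2fastq and the mm10 build. Every column was mapped to its mouse by name, no cells had identical values and no cell names were shared between mice.

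Values were analysed as log2(RPKM + 1). Clusters came from the 1000 most variable genes among those reaching 1 RPKM in 10 or more cells, with 20 principal components and 15 nearest neighbours, with the number of clusters chosen between 12 and 25, which gave 15. All complement genes were left out of clustering and naming. A cluster was named from at least 3 detected markers, with its own list leading its top 10 genes, and a limit of 50% for a list's own share was set after seeing the data. Class means per mouse (at least 3 cells) were compared with limma 3.58.1 (R 4.3.3), with the mouse as a block between classes and no block between diets, on genes with a mean of at least 1, at a Benjamini-Hochberg adjusted p of 0.05. Single values were tested with two-sided exact sign-flip or permutation tests. Shares carry Wilson 95% intervals. Calculations used Python 3.11.15, numpy 2.4.6, pandas 2.3.3, scipy 1.17.1 and scikit-learn 1.9.0.

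The table gives no read counts. Depth per cell was estimated from the step between low RPKM values using RefSeq lengths of 10722 genes, for which 89.8% of low values were whole reads within 0.05, against 16% with shuffled lengths. On simulated data, 18 of 20 cells were recovered within 2%. C5ar1 has more than 1 accession and no read estimate. Shares were not compared at matched depth.

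The named genes were the 8 members, up to 4 other complement genes per class with the highest mean of at least 2, and the 3 genes most like each member by Pearson's r. The members and lists were chosen with earlier results of these data known. Alternatives covered the pseudocount, the low-value filter, averaging before the logarithm, rescaling, clustering, the minimum number of cells, the block and leaving out each mouse.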

Additional observations from a re-analysis of the deposited data

Results flagged for a closer look

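The difference in Vsig4 between KC-like and T-cell-like cells was 6.61 in HFD3 and 7.87 to 8.62 in the other mice. Its gap to the nearest mouse was 0.626 of the whole range, just past Dixon's critical value for 6 samples. Of 40 such sets of member differences examined it was the only one past the limit, and chance alone passes it in about 1 of 20. Vsig4 in T-cell-like cells was highest in HFD3 (3.91, against 0.66 to 3.08 in the other mice), where the summed level of the KC markers was also highest (31.1), and their part in the difference was not tested.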

How the results depend on the processing

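The number of members called in MoMac/cDC-like minus endothelial-like cells, 1 as reported, was 2 with log2(RPKM + 0.1), Ward clustering or 10 principal components, 0 without the filter on low values or with RPKM averaged before the logarithm, and 4 (1 higher and 3 lower) when cells were classed by their highest marker level. It was 1 to 2 when each mouse was left out in turn. The cause was not tested. The HFD minus ND count in endothelial-like cells, 0 as reported, was 0 to 5 when each mouse was left out, with 5 without HFD3. Over the 5 class comparisons, 60 of 85 alternatives gave the reported count in each direction. The count was 5 to 6 against MoMac/cDC-like cells and 6 to 8 against endothelial-like, B-cell-like and T-cell-like cells, with C3ar1 or C5ar1 passing the low-value filter or not. Without HFD1, the 1 member called between MoMac/cDC-like and endothelial-like cells was C1qb, lower, and not C3. The diet counts were equal in 84 of 85 alternatives and those of diet by class in 34 of 34. Of member differences past the threshold, 452 of 455 alternative values kept their call. Of those not past it, 828 of 843 kept theirs, with 88 changes of sign. Of the member levels, 935 of 1000 moved by less than 1 SD. The levels depended on the scale, since only 43 of 72 did so with log2(RPKM + 0.1), and 43 of 72 with averaging before the logarithm. With averaging before the logarithm, the share of called genes that were higher went from 10.6% to 48.7% in KC-like minus MoMac/cDC-like cells and from 74.1% to 43.1% in MoMac/cDC-like minus endothelial-like cells. Rescaling every cell to the same RPKM total moved the median difference of all genes between KC-like and endothelial-like cells from -0.28 to -0.40.

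The labels do not say whether equal replicate numbers pair the mice. Correlations of same-numbered mice were -0.303 to 0.1819 over classes, which with 3 mice per diet cannot settle it. With the replicate number as a block, 0 members were called in each diet comparison, and with no block for the mouse in the class comparisons 6, 7, 7, 6 and 1 were called. With 3 mice per diet, depth and the number of mice limit C3ar1 and C5ar1, found in few cells of most classes.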
